A study of Sus scrofa with 15 samples.

Results

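Gene expression in pig penile corpus cavernosum was compared between ECs+ implantation and implantation B, the pair that the study's design sets against each other. The 6 libraries of this pair, 3 in each group, were taken by sample title out of 15 libraries in 5 groups. The other groups are named implantation A, defect and normal in the labels. All are polyadenylated RNA of Sus scrofa (domestic pig) labelled as penile corpus cavernosum. The series concerns rebuilding of the vascular network of that tissue. The labels spell out neither ECs nor the difference between implantation A and B, and give no strain, age, time, cell source or number of animals, so what the implant held is known only as far as the group names say it. Nor is it stated whether the 3 libraries of each group are from different animals. The p-values below therefore measure library-to-library spread alone, and that spread may be technical. In the samples titled ECs+ implantation, a further line of the description reads as the label of normal 3. Titles and column names were followed here. KRT5, a keratin of squamous epithelium, stood at 0, 0.22 and 0 CPM (counts scaled to library size, here with TMM factors of all 15 libraries) in the ECs+ implantation libraries, against 615 CPM in the third normal library, so those libraries are not copies of it.

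Beside implantation B, the ECs+ implantation libraries held far less of most epithelial transcripts, several squamous keratins being nearly absent, and far less of the fibrillar collagens. They held more of most endothelial transcripts and more of the genes that present peptides on MHC class I and class II. Most contractile smooth muscle transcripts differed by less than 2-fold, and more smooth muscle channel transcripts were lower than higher. Macrophage, nerve and immediate early transcripts were mostly lower, and ribosomal protein transcripts were higher. The genes that mark these groups of transcripts are KRT5 (chromosome 5, 17862047 to 17868397 on Sscrofa11.1), COL1A1 (chromosome 12, 26379087 to 26397180), CLDN5 (chromosome 14, 51161490 to 51162382), PECAM1 (chromosome 12, 14667643 to 14723296) and SLA-1 (chromosome 7, 22824137 to 22920154).

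The corpus cavernosum is erectile tissue. Its blood spaces, lined by endothelium, lie between trabeculae of smooth muscle, fibroblasts, collagen and elastic fibres, and it carries autonomic nerves. Nitric oxide from nerves and endothelium raises cyclic GMP in the smooth muscle, which relaxes and lets the spaces fill, while phosphodiesterases, which break down cyclic GMP, act the other way. Stratified squamous epithelium belongs to skin and to the distal urethra, not to the cavernous tissue itself. In bulk RNA, fewer cells of a type and less RNA per cell cannot be told apart, which holds for every group of genes below.

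Total counts ran from 17770452 to 18810860 in ECs+ implantation and from 17234169 to 19526875 in implantation B, so depth was alike. The groups differed in composition: COL1A1 alone took 0.407% to 0.411% of the counts in ECs+ implantation, against 7.21% to 7.39% in implantation B, and the 18S ribosomal RNA entry RN18S took 1.38% to 1.41%, against 0.174% to 0.18%. The TMM factors, which correct for such differences, ran from 1.084 to 1.088 in ECs+ implantation and from 0.917 to 0.925 in implantation B. Of 17204 genes tested with edgeR's quasi-likelihood test, 13048 (75.8%) passed an adjusted p of 0.05, 6501 higher in ECs+ implantation (37.8%) and 6547 lower (38.1%). A change of at least 2-fold was seen in 4521 genes (26.3%), 1889 higher (11%) and 2632 lower (15.3%). The libraries of both groups did not overlap in 13305 genes (77.3%), and the median log2 fold change over all genes tested was 0.02. With so many genes past the test, the counts of members below are read against these shares, and size of change says more than passing. ACTA2, MYH11 and PECAM1, markers of the smooth muscle and endothelium of the labelled tissue, were present in every library of both groups, at levels given below.

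The epithelial genes gave the largest differences. Of 78 tested genes on 5 lists of epithelium, 68 fell and 6 rose in ECs+ implantation. A fall of at least 2-fold was seen in 65 (83.3%, against 15.3% of all genes tested), and one of at least 10-fold in 45 (57.7%, against 2.76%). Their median log2 fold change was -4.11. The summed level of the 90 epithelial genes in the table was 1549 ± 4.95 CPM in ECs+ implantation and 10119.7 ± 62.7 CPM in implantation B (SD, n = 3 each). KRT5, the keratin of the basal layer, was read at 0, 0.207 and 0 CPM in ECs+ implantation, against 1552, 1599.5 and 1604 CPM in implantation B. That is 4 counts in all, against 80550, and the fitted log2 fold change was -14.38 ± 0.68 (SE, with adjusted p = 1.40e-44). All 4 counts were in ECs+ implantation 2, without which the fitted value was -17.81, so beyond the near absence of counts its size is uncertain. KRT15, a second basal keratin, had 0 counts in every ECs+ implantation library and 99.6, 105 and 102 CPM in implantation B, and was at least 2020-fold lower, if 3 counts (0.0507 CPM) are assumed for ECs+ implantation as a whole.

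Keratins of the upper layers followed. KRT4, of non-cornified squamous epithelium, had 0.36, 0.414 and 0.343 CPM in ECs+ implantation, against 1800.3, 1839 and 1829 CPM in implantation B, a log2 fold change of -12.23 ± 0.23 (adjusted p = 6.53e-72). KRT6A, a keratin of wounded and fast-renewing epithelium, had 0, 0 and 0.098 CPM in ECs+ implantation, against 529.5, 541 and 526 CPM in implantation B. With 2 counts in ECs+ implantation, the ratio of implantation B to ECs+ implantation was 15700 (95% exact interval 4360 to 130000, counting error only). Values of no library of either group came near those of the other for these keratins. Desmosomes, the junctions that hold keratinocytes together, lost DSP (desmoplakin), at 0.257, 0.362 and 0.392 CPM in ECs+ implantation, against 332, 338 and 354 CPM in implantation B, and likewise DSG3 (-9.05 on the log2 scale) and PERP (-6.53). CDH1, the epithelial cadherin, was 79.8-fold lower, at 1.6, 1.45 and 1.27 CPM in ECs+ implantation, against 109, 115 and 122 CPM in implantation B. Of the 19 tested junction genes 18 fell. EPCAM did not pass, at 14.5, 16.5 and 13.7 CPM in ECs+ implantation, against 15.4, 16.4 and 14.9 CPM in implantation B (adjusted p = 0.588).

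The regulators of epithelial identity fell with the structural genes, 19 of 20 tested, with a median log2 fold change of -3.73. EHF and ELF3, ETS factors of epithelium, were 155-fold and 339-fold lower, and KLF5 was 9.22-fold lower. TP63, the master regulator of stratified epithelium, had 0.0515, 0.0517 and 0.147 CPM in ECs+ implantation, against 52.6, 53.9 and 51 CPM in implantation B. ESRP1, which sets epithelial splicing, had 1 count in ECs+ implantation, and the ratio of implantation B to ECs+ implantation was 2040 (95% exact interval 366 to 80700). SIM2 alone of these rose, to 9.83, 9.36 and 10.6 CPM in ECs+ implantation, against 3.52, 4.73 and 3.74 CPM. Of the urothelial and secretory genes 13 of 15 tested fell, led by the water and glycerol channel AQP3 (243-fold lower), WFDC2, LCN2 and SPINT1. The uroplakins UPK1A, UPK1B, UPK2 and UPK3B, which define urothelium, were too low to be tested in either group, and UPK3A did not pass.

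The fall was uneven, and what remained in ECs+ implantation rested on few genes. 6 genes with at least 50 CPM there, ITGB4, PPL, ITGA6, JUP, PKP1 and LCN2, made up 82.8% of the summed epithelial level, and 48 of the 90 genes were under 1 CPM. ITGA6 and ITGB4, the integrin pair of hemidesmosomes, which endothelium also carries, did not fall with the keratins. ITGA6 had 202, 209.5 and 199 CPM in ECs+ implantation, against 159, 150.5 and 151 CPM in implantation B, 1.32-fold higher. ITGB4 had 469, 475 and 483 CPM in ECs+ implantation, against 428, 426 and 435 CPM in implantation B, with a log2 fold change of 0.15 that was -0.11 with log2 of TPM plus 1, so no direction is given. JUP (plakoglobin), also a part of endothelial junctions, was 2.31-fold lower, at 153, 155 and 159 CPM in ECs+ implantation, against 357, 361 and 358 CPM in implantation B, and PPL (periplakin) 2.97-fold lower. DMKN and SLPI rose at low levels, as did KRT10 with counts, at 8.8, 10.9 and 9.51 CPM in ECs+ implantation, against 7.16, 7.25 and 7.71 CPM in implantation B, although it did not pass with TPM (adjusted p = 0.199), and KRT8 was 1.36-fold lower. The genes named beyond the 4 with the smallest p of each list, here and below, were chosen after their values were seen.

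**Figure D1:**
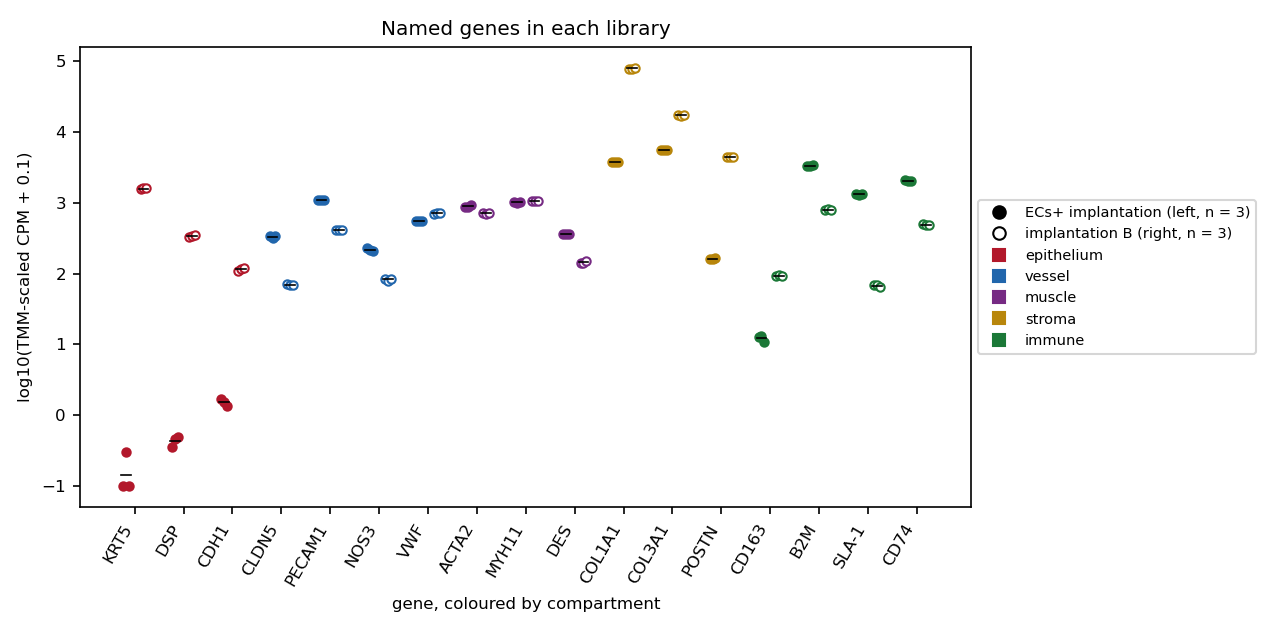
Named genes in each of the 6 libraries, as log10 of TMM-scaled CPM plus 0.1, with genes coloured by compartment and 1 point per library. The epithelial genes lie near the bottom in ECs+ implantation and high in implantation B. In ECs+ implantation, CLDN5, PECAM1, SLA-1 and the muscle gene DES lie above implantation B, and COL1A1 and POSTN lie below it. The smooth muscle genes ACTA2 and MYH11 are close together in both groups.

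To see whether the scaling rests on the listed epithelial genes, the fit was repeated with scaling factors from genes outside the epithelial lists. This checks the factors only. It cannot show how much of the change in other genes comes with the epithelium, and epithelial genes on no list stayed in the scaling. The median of all genes moved by -0.0039 on the log2 scale, and all 187 named genes kept their direction and their side of the threshold. The epithelial lists held 0.167% to 0.169% of all counts in ECs+ implantation and 0.93% to 0.934% in implantation B, whereas the stromal lists held 9.18% to 9.29% and 21.8% to 22.1%. The difference in stromal counts was thus the larger in absolute terms. Of the 474 genes that fell at least 10-fold (2.76% of all genes tested), 45 were on the epithelial lists. A further 20 belonged to the other lists, of 604 tested there, a share near that of all genes. The rest, most of the 474, were on no list and were not assigned to a tissue. The 20 on other lists include the collagens COL1A1, COL11A1 and COL12A1. Also among them are MMP9, HK2, OASL and the calgranulins S100A8, S100A9 and S100A12, which epithelium can express too. How much of their fall comes with the epithelium was not tested.

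Endothelial transcripts were higher in ECs+ implantation. Of 20 tested genes of endothelial identity and junctions 16 rose, 14 of them at least 2-fold, against 11% of all genes tested, and 2 fell. The median log2 fold change was 1.35, and the summed level was 5607 ± 46.6 CPM in ECs+ implantation and 2739.7 ± 21.1 CPM in implantation B (SD, n = 3 each). CLDN5, the claudin of endothelial tight junctions, had 336, 322 and 337 CPM in ECs+ implantation, against 71, 69 and 69.9 CPM in implantation B, with a log2 fold change of 2.24 ± 0.034 (± SE) and an adjusted p of 2.08e-47. PECAM1, an adhesion molecule of all endothelium and of platelets and leukocytes, had 1109.6, 1086 and 1112 CPM in ECs+ implantation, against 415, 415 and 419 CPM in implantation B, 2.65-fold higher (adjusted p = 1.21e-46). For neither gene did the libraries of the groups overlap. CLEC14A and TIE1, surface receptors of endothelium, were 4.33-fold and 3.54-fold higher. EGFL7 and ECSCR were 5.35-fold and 5.37-fold higher, and CDH5, the endothelial cadherin, 1.72-fold. KDR, the main VEGF receptor, had 143, 149 and 143 CPM in ECs+ implantation, against 73.6, 70.7 and 69.8 CPM in implantation B (2.04-fold higher).

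The rise did not extend to every endothelial gene. VWF, the clotting factor stored in endothelial granules, was lower, at 553, 552 and 563 CPM in ECs+ implantation, against 699, 713 and 719 CPM in implantation B (log2 fold change -0.35 ± 0.022, adjusted p = 2.46e-20). PLVAP, of the diaphragms of fenestrated endothelium, was 1.49-fold lower. ENG had 147, 146 and 147 CPM in ECs+ implantation, against 139, 147 and 142 CPM in implantation B, with overlapping libraries, and CD34 had 200.4, 197 and 199.96 CPM in ECs+ implantation, against 201, 207 and 214 CPM in implantation B. Neither passed (adjusted p = 0.259 and 0.0696). Of the genes of endothelial metabolism and signalling 16 of 22 rose and 6 fell (median 1.04), led by RAMP2, TAL1, ARHGEF15 and NOS3. NOS3, the endothelial nitric oxide synthase, had 228, 219 and 211 CPM in ECs+ implantation, against 85, 79.5 and 84.6 CPM in implantation B, 2.64-fold higher. The anticoagulant genes THBD and PROCR were 1.76-fold and 2.4-fold higher. Among the adhesion molecules that cytokines induce, VCAM1 was 2.13-fold higher, while SELE was 2.36-fold and ICAM1 1.86-fold lower.

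**Figure D2:**
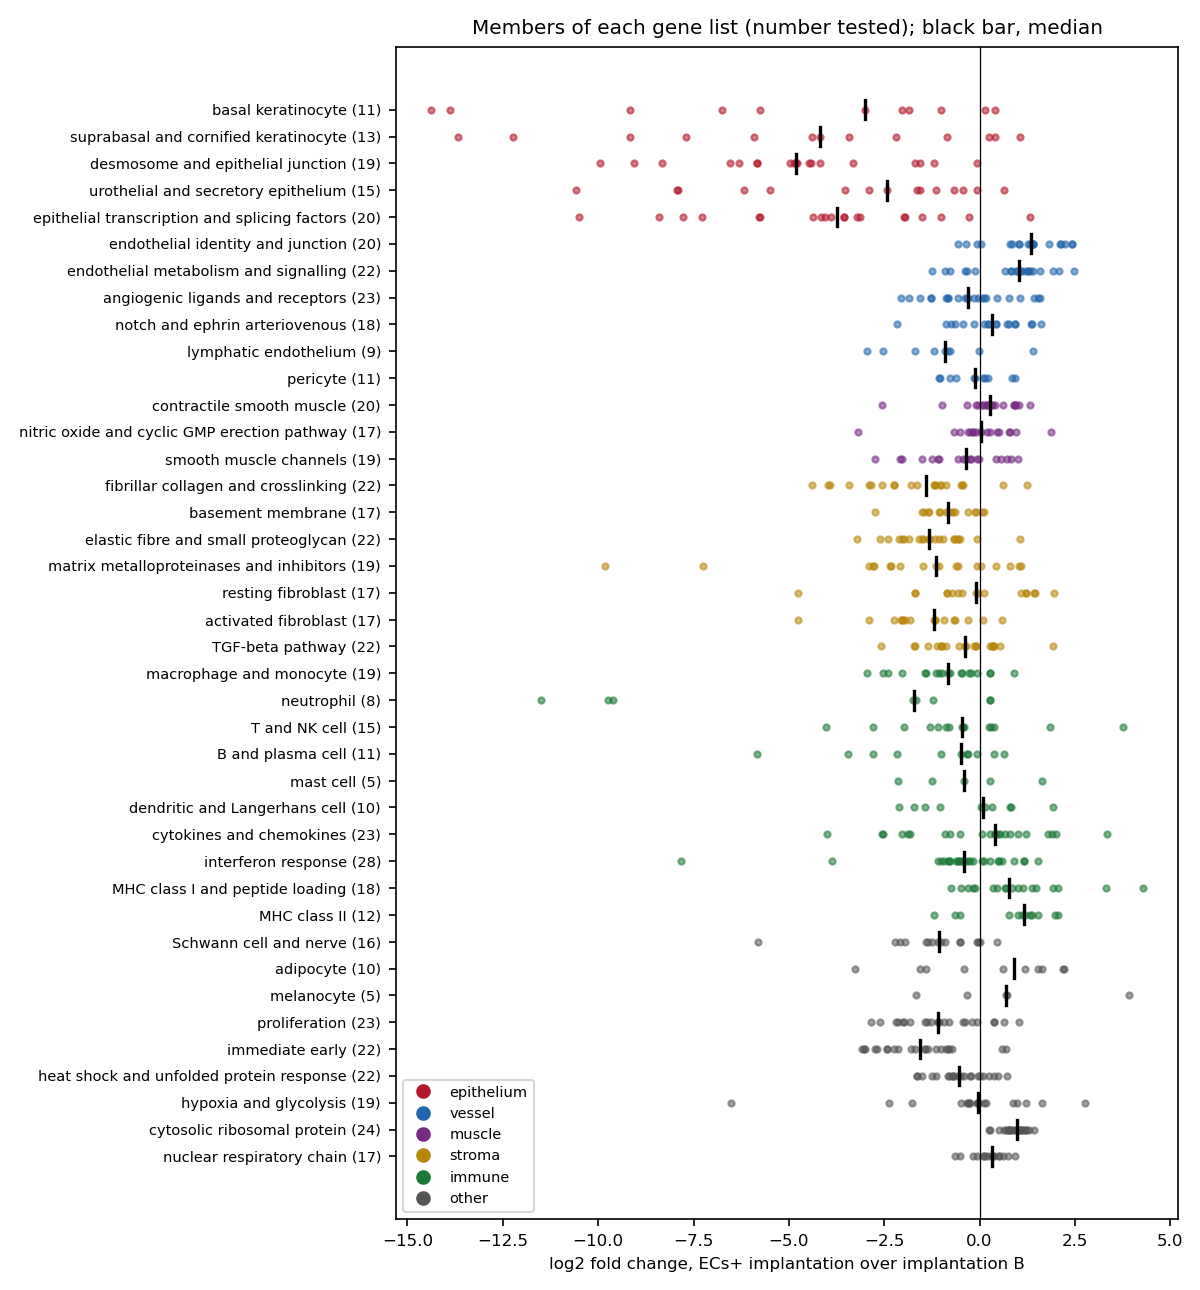
Log2 fold change of ECs+ implantation over implantation B for each tested member of each list, 1 point per gene, with the number tested beside the list name and a black bar at the median. The 5 epithelial lists reach far to the left, the collagen, elastic fibre and immediate early lists lie left of 0, and the endothelial identity, MHC and ribosomal lists lie mostly right of it.

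Ligands and receptors of vessel growth were split, 7 of 23 tested higher and 12 lower (median -0.29). ANGPTL4 (2.71-fold), ANGPT2 (2.98-fold), which destabilises vessels, and the VEGF family ligands PGF (2.91-fold) and VEGFC (2.07-fold) were higher. NRP1, a VEGF co-receptor, and MET, the receptor of hepatocyte growth factor, were 1.78-fold and 3.58-fold lower. VEGFA had 83.1, 83.2 and 80 CPM in ECs+ implantation, against 104, 101 and 103 CPM in implantation B, 1.25-fold lower (adjusted p = 5.20e-10), a difference that did not pass with scaling by library size alone (adjusted p = 0.0512). Genes known from endothelial tip cells went both ways. APLN, ESM1 and UNC5B were 4.15-fold, 2.41-fold and 4.5-fold lower, while DLL4 was 1.91-fold higher, as was ANGPT2 above. On the list of Notch and ephrin genes, which set arterial and venous identity, 11 of 18 rose and 6 fell, with a median of 0.32 that turned to -0.05 with log2 of TPM plus 1, where 7 rose and 8 fell. Both the venous factor NR2F2 (2.57-fold) and the arterial connexin GJA4 (3.08-fold) and Notch target HEY1 (2.59-fold) were higher, while NOTCH2 was 1.82-fold and the arterial ligand EFNB2 1.56-fold lower.

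Lymphatic endothelial genes did not share the rise. Of 9 tested 7 fell and 1 rose (median -0.91). CCL21, the chemokine of lymphatic vessels, had 7.77, 7.7 and 6.27 CPM in ECs+ implantation, against 58.1, 55.3 and 53.6 CPM in implantation B, 7.68-fold lower, MMRN1 was 5.81-fold and RELN 3.25-fold lower, and PDPN, which basal keratinocytes also carry, was 2.31-fold lower. PROX1, the factor that sets lymphatic identity, did not pass, at 12.9, 14.9 and 14.1 CPM in ECs+ implantation, against 13.3, 13.1 and 15.5 CPM in implantation B (adjusted p = 0.989), with overlapping libraries, and FOXC2 rose 2.65-fold. Of the 11 pericyte genes, 4 rose and 6 fell (median -0.11, but 0.13, with 7 higher and 4 lower, when scaled by library size alone). NOTCH3 and CSPG4 were 2.08-fold and 2.04-fold lower, PDGFRB, with 529.6, 505 and 519 CPM in ECs+ implantation, against 791, 785 and 801 CPM in implantation B, 1.53-fold lower, and ABCC9 1.72-fold lower. RGS5 had 115, 113 and 108 CPM in ECs+ implantation, against 107, 103 and 104 CPM in implantation B. Its log2 fold change of 0.10 ± 0.038 (adjusted p = 0.0215) changed sign to -0.15 with TPM, so no direction is given.

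Smooth muscle transcripts went both ways. Over 60 tested muscle genes 30 rose and 25 fell. A rise of at least 2-fold was seen in 4 (6.67%, against 11% of all genes tested) and a fall of that size in 10 (16.7%, against 15.3%), and the median log2 fold change was 0.05. The summed level was 10186 ± 80.6 CPM in ECs+ implantation and 9168 ± 24.3 CPM in implantation B (SD, n = 3 each). Of the contractile genes 15 of 20 rose and 5 fell (median 0.27). With log2 of TPM plus 1, 10 rose and 6 fell (median 0.06). DES, the muscle intermediate filament, led with 363, 367 and 362 CPM in ECs+ implantation, against 143, 144 and 149 CPM in implantation B, 2.51-fold higher, and TAGLN, MYL9 and TPM2 were 1.87-fold, 1.93-fold and 1.9-fold higher. ACTA2, smooth muscle actin, had 878, 863 and 933 CPM in ECs+ implantation, against 710.1, 699.5 and 729 CPM in implantation B. It was 1.25-fold higher with counts (adjusted p = 1.74e-15), and did not pass with TPM (log2 fold change 0.05, adjusted p = 0.201). MYH11, myosin heavy chain of smooth muscle, had 1018, 1011 and 1040.2 CPM in ECs+ implantation, against 1051, 1056 and 1062 CPM in implantation B. Its log2 fold change of -0.05 (adjusted p = 0.0311) became 0.19 with scaling by library size alone and did not pass without ECs+ implantation 1 (-0.04, adjusted p = 0.074), without ECs+ implantation 2 (-0.03, 0.133) or without implantation B 3 (-0.05, 0.0537), so no direction is given. MYOCD, the coactivator that drives the contractile genes, was 5.9-fold lower at a low level, 1.13, 1.29 and 1.27 CPM in ECs+ implantation, against 7.57, 6.49 and 7.82 CPM in implantation B.

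On the list of nitric oxide, cyclic GMP and other regulators of erectile tone, among them endothelin and adrenergic receptors, 8 of 17 tested genes rose and 6 fell (median 0.03), and with log2 of TPM plus 1, 5 rose and 10 fell (median -0.25). GUCY1B3, a subunit of the nitric oxide receptor guanylate cyclase, had 48.1, 52.1 and 52.5 CPM in ECs+ implantation, against 24.8, 26.9 and 27.4 CPM in implantation B, 1.93-fold higher. The phosphodiesterases moved apart. PDE5A, which breaks down cyclic GMP and is the target of sildenafil, had 58.7, 64.5 and 57.9 CPM in ECs+ implantation, against 94.4, 101 and 94.4 CPM in implantation B, 1.6-fold lower (adjusted p = 7.65e-19). PDE3A was 9.11-fold lower, while PDE2A was 3.64-fold higher, at 212, 207 and 212 CPM in ECs+ implantation, against 54.3, 62.2 and 57.1 CPM in implantation B. RHOA was 1.36-fold higher, and the kinases ROCK1 and ROCK2, which keep the muscle contracted, 1.43-fold and 1.2-fold lower, ROCK2 not passing with scaling by library size alone (adjusted p = 0.652). Of 19 channel and calcium genes 12 fell, 7 of them at least 2-fold, and 5 rose (median -0.35). GJA1, the connexin that couples smooth muscle cells and that keratinocytes and fibroblasts also express, had 46.7, 48.7 and 49.3 CPM in ECs+ implantation, against 321, 321 and 317 CPM in implantation B, 6.63-fold lower. The sarcoplasmic calcium pump ATP2A2 was 2.07-fold, the potassium channel KCNMA1 4.24-fold and the calcium channel CACNA1C 4.1-fold lower. Of 15 skeletal muscle genes 4 were high enough to be tested. PYGM and CASQ1 were 1.4-fold and 1.58-fold higher, TNNT3 was 26.2-fold lower, and TTN, 1.45-fold lower, did not pass with log2 of TPM plus 1 (adjusted p = 0.274). ACTA1 and the skeletal myosins MYH1, MYH2, MYH4 and MYH7 were too low to test.

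Most matrix and activated fibroblast transcripts were lower, while genes of resting fibroblasts went both ways. Of 136 tested stromal genes 106 fell and 23 rose, and 68 (50%, against 15.3% of all genes tested) fell at least 2-fold. Their median log2 fold change was -1, and the summed level was 85039.7 ± 674 CPM in ECs+ implantation and 238257 ± 2810.0 CPM in implantation B (SD, n = 3 each). COL1A1, a chain of type I collagen, had 3756, 3743 and 3787 CPM in ECs+ implantation, against 77986, 78797 and 80533 CPM in implantation B, a log2 fold change of -4.39 ± 0.013 or 21.0-fold lower (adjusted p = 1.99e-75). COL1A2, its partner chain, was 7.17-fold lower, and COL3A1, of type III collagen, 3.1-fold lower, at 5576, 5526 and 5568 CPM in ECs+ implantation, against 17298, 17119.6 and 17272 CPM in implantation B. The chains of a collagen type thus fell by unequal amounts. COL5A1 and COL11A1 were 7.49-fold and 15.2-fold lower, and LOX, which crosslinks collagen, 15.7-fold lower. In all 20 of 22 tested genes of fibrillar collagen and its crosslinking fell. COL5A3 (1.53-fold) and LOXL4 (2.38-fold) rose. POSTN (periostin), a mark of activated fibroblasts, had 159.6, 159 and 165 CPM in ECs+ implantation, against 4372, 4388 and 4398 CPM in implantation B, 27.2-fold lower. SPARC, THY1 and ACAN were 4.06-fold, 4.71-fold and 3.88-fold lower, and FN1 (fibronectin) had 1519, 1511 and 1510.5 CPM in ECs+ implantation, against 3411, 3496 and 3504 CPM in implantation B, 2.29-fold lower. Of the 17 activated fibroblast genes 15 fell and 1 rose.

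Elastic fibre and small proteoglycan genes fell in 21 of 22 (median -1.33). FMOD (fibromodulin) was 4.29-fold lower, MFAP4 and FBN1, of elastic microfibrils, 6.12-fold and 5.27-fold lower, and ELN, elastin itself, 2.47-fold lower, at 1576, 1529.5 and 1524 CPM in ECs+ implantation, against 3795, 3824 and 3819 CPM in implantation B. Basement membrane genes fell in 15 of 17 by less (median -0.83), led by LAMC3 (6.63-fold), HSPG2 (2.84-fold), COL15A1 (2.11-fold) and COL4A2 (2.04-fold). LAMA4, the laminin chain of vessel walls, had 379, 377 and 373 CPM in ECs+ implantation, against 349, 345 and 356 CPM in implantation B, with a log2 fold change of 0.11 that was -0.15 with log2 of TPM plus 1. Among matrix proteases and their inhibitors 13 of 19 fell and 4 rose. ADAMTS2, which trims procollagen, was 7.42-fold lower, TIMP2 2.8-fold and MMP2 4.96-fold lower, MMP1 had 0.309, 0.259 and 0.245 CPM in ECs+ implantation, against 39.9, 42.8 and 43.4 CPM in implantation B, and TIMP3 was 1.73-fold higher. Of 17 resting fibroblast genes 6 rose, all at least 2-fold, and 9 fell, 3 of them at least 2-fold (median -0.09, 0.15 with scaling by library size alone). Their summed level was higher, at 38979 ± 459 CPM in ECs+ implantation and 22178 ± 324 CPM in implantation B (SD, n = 3 each). MGP, an inhibitor of calcification, had 1874, 1833 and 1848 CPM in ECs+ implantation, against 486, 470.2 and 488 CPM in implantation B, 3.85-fold higher, APOD was 2.75-fold and GSN 2.11-fold higher, and TNXB 3.23-fold lower. PDGFRA, the growth factor receptor of fibroblasts, was 3.21-fold lower. In the TGF-beta pathway, which drives collagen synthesis, the ligand TGFB1 had 96.8, 99.3 and 99.7 CPM in ECs+ implantation, against 80.5, 85.3 and 79.2 CPM in implantation B. It was 1.21-fold higher with counts and did not pass with TPM (log2 fold change 0.03, adjusted p = 0.564). TGFB2 and TGFB3 were 3.22-fold and 2.16-fold lower, and the target gene TGFBI 5.98-fold lower. Of the 22 pathway genes 7 rose and 13 fell.

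Antigen presentation genes mostly rose. Of 18 tested genes of MHC class I and its peptide loading 13 rose and 4 fell, and of 12 MHC class II genes 9 rose and 3 fell. The medians were 0.78 and 1.16. SLA-1, a class I heavy chain of the pig, had 1337, 1280.2 and 1334 CPM in ECs+ implantation, against 69.5, 69.4 and 64.2 CPM in implantation B, a log2 fold change of 4.28 ± 0.03 or 19.5-fold higher (adjusted p = 6.89e-62). SLA-2 was 9.94-fold higher. SLA-3, the other classical heavy chain, was lower, at 137, 139.7 and 153 CPM in ECs+ implantation, against 202, 203 and 198 CPM in implantation B. The SLA heavy chain genes are near-identical copies that share reads and vary between animals, so how counts split among them is uncertain. B2M, the invariant light chain of class I, has its own locus outside the complex and had 3295, 3323 and 3393 CPM in ECs+ implantation, against 799, 807 and 795 CPM in implantation B, 4.17-fold higher (adjusted p = 8.59e-57). PSMB8 and PSMB9, of the immunoproteasome, were 2.58-fold and 2.19-fold higher, the peptide transporters TAP1 and TAP2 1.38-fold and 1.63-fold, and NLRC5, the class I transactivator, 2.02-fold. CD74, the invariant chain of class II, had 2082, 2019 and 2048 CPM in ECs+ implantation, against 497, 493 and 487 CPM in implantation B, 4.16-fold higher. SLA-DRB1, SLA-DQA1 and SLA-DRA were 3.91-fold, 2.49-fold and 2.3-fold higher and CIITA, the class II transactivator, 2.18-fold.

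Most macrophage and monocyte genes were lower. Of 19 tested macrophage and monocyte genes 15 fell and 3 rose (median -0.83). CD163, a scavenger receptor of tissue macrophages, had 12.6, 13.1 and 10.8 CPM in ECs+ implantation, against 92.6, 95.5 and 91.8 CPM in implantation B, 7.68-fold lower (adjusted p = 2.96e-40). CD68, of lysosomes, had 21.8, 20.3 and 21.1 CPM in ECs+ implantation, against 56.8, 57.3 and 55.1 CPM in implantation B, 2.67-fold lower, and CSF1R and MRC1 were 4.12-fold and 5.77-fold lower. LAPTM5, shared by all leukocytes, was 1.87-fold higher. The dendritic and Langerhans list was split, 3 of 10 higher and 4 lower (median 0.09, -0.12 with log2 of TPM plus 1), with CD83 2.71-fold and ITGAX 2.05-fold lower. CLEC9A, a receptor of cross-presenting dendritic cells, had 1.54, 1.29 and 1.27 CPM in ECs+ implantation, against 0.117, 0.693 and 0.279 CPM in implantation B, 3.8-fold higher, and ZBTB46, a factor of dendritic cells and of endothelium, was 1.77-fold higher. LAMP3, of mature dendritic cells, was 1.74-fold higher with counts (adjusted p = 0.0142) and did not pass with log2 of TPM plus 1 (adjusted p = 0.0519). Of 15 tested T and NK cell genes 7 fell, 3 rose and 5 did not pass. The summed level was 141 ± 4.6 CPM in ECs+ implantation and 57.9 ± 2.85 CPM in implantation B (SD, n = 3 each). Most of that difference is CCL5 alone, whose values are given below, and the median log2 fold change of the list was -0.46. Among those that fell were CD4 (6.92-fold) and NKG7 (2.47-fold). CD3E, of the T cell receptor complex, had 0.978, 1.24 and 1.08 CPM in ECs+ implantation, against 0.939, 2.14 and 2.68 CPM in implantation B, with overlapping libraries. Its log2 fold change of -0.81 ± 0.32 (adjusted p = 0.0199) did not pass without ECs+ implantation 1 (-0.73, adjusted p = 0.0554), without implantation B 2 (-0.73, 0.0791) or without implantation B 3 (-0.48, 0.258). CCL5, a chemokine of T and NK cells and of other activated cells, was 13.6-fold higher, at 73.5, 67 and 69.1 CPM in ECs+ implantation, against 5.4, 5.99 and 4.08 CPM in implantation B, and CD247 3.62-fold higher. Of the B and plasma cell genes 6 of 11 fell. JCHAIN, the joining chain of secreted antibody, had 16.7, 17.7 and 15.6 CPM in ECs+ implantation, against 190.2, 186 and 173 CPM in implantation B, 11-fold lower, and IRF4 was 6.91-fold lower. Of 5 tested mast cell genes 3 fell and 1 rose. The receptor chains MS4A2 and FCER1A were 4.37-fold and 2.38-fold lower, HDC did not pass (adjusted p = 0.455), and GATA2, a factor that endothelium also expresses, had 82.5, 79.5 and 69.1 CPM in ECs+ implantation, against 22.3, 24.6 and 26.9 CPM in implantation B, 3.13-fold higher.

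The neutrophil list fell in 6 of 8 genes, but its 3 largest falls were the calgranulins S100A8, S100A9 and S100A12, which activated keratinocytes also make. S100A9 had 0.721, 0.31 and 1.22 CPM in ECs+ implantation, against 597, 603 and 593 CPM in implantation B. Without these, 2 of 5 tested genes rose and 3 fell, and the summed level was 58.4 ± 0.101 CPM in ECs+ implantation and 54.0 ± 1.59 CPM in implantation B. Inflammatory cytokines and chemokines moved apart. IL6 had 0.309, 0.569 and 0.343 CPM in ECs+ implantation, against 6.99, 6.17 and 6.59 CPM in implantation B, 16-fold lower, and IL1B and TNF were 4.06-fold and 5.94-fold lower at low levels. CXCL9 and CXCL10, chemokines that interferon gamma induces, were 10.1-fold and 3.74-fold higher, CXCL10 at 27.1, 25.1 and 29 CPM in ECs+ implantation, against 5.93, 7.56 and 8.21 CPM in implantation B. CXCL14, made by epithelium and fibroblasts, was 3.57-fold lower, CCL19 2-fold higher and SOCS3 1.44-fold lower. Over the list 12 of 23 rose and 9 fell. Interferon response genes were also split, 10 of 28 higher and 18 lower (median -0.40). MX2, OAS2 and OASL were 14.6-fold, 2.13-fold and 225-fold lower, while IFI44L, GBP1 and GBP2 were 2.24-fold, 2.25-fold and 2.91-fold higher.

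**Figure D3:**
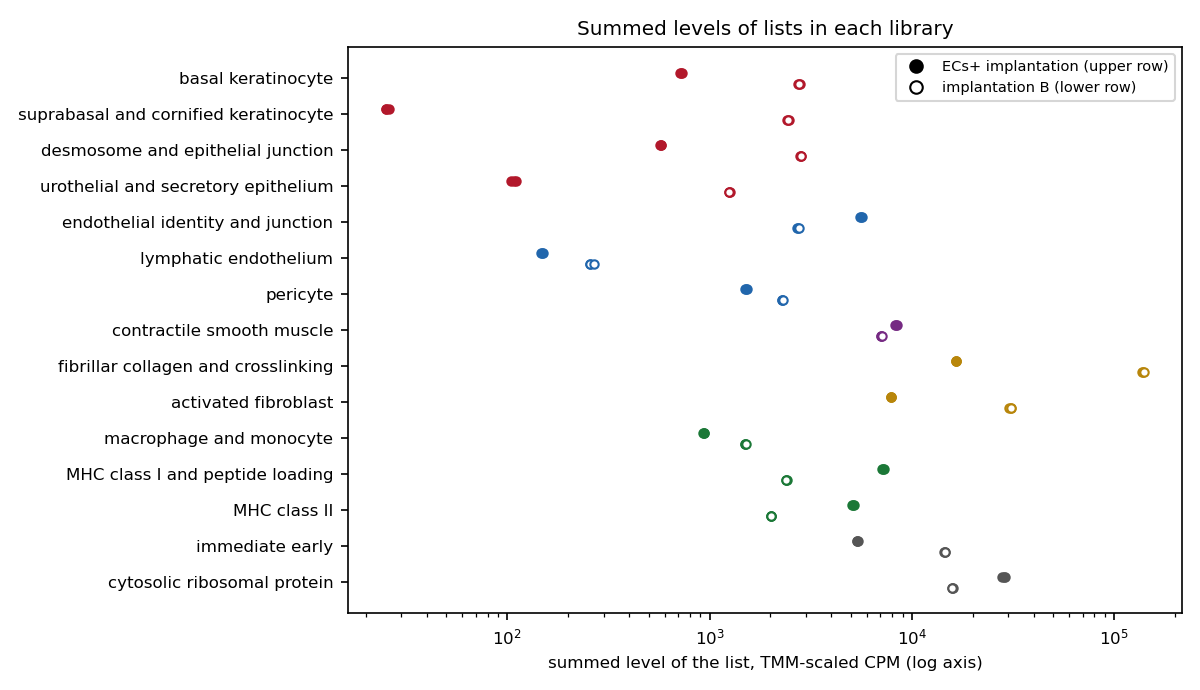
Summed TMM-scaled CPM of selected lists in each of the 6 libraries on a log axis, 1 point per library. Epithelial and fibrillar collagen sums are lower in ECs+ implantation, endothelial identity and MHC sums are higher, and contractile muscle sums lie close together.

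Nerve transcripts fell in 12 of 16 tested genes and 1 rose (median -1.05). SOX10, the factor of Schwann cells, had 6.18, 6.46 and 7.4 CPM in ECs+ implantation, against 18.3, 16.1 and 16.9 CPM in implantation B, 2.55-fold lower, NEFL, a neurofilament chain, had 1.8, 2.12 and 1.76 CPM in ECs+ implantation, against 105, 108 and 107 CPM in implantation B, and NCAM1, NGFR and ERBB3 were 2.39-fold, 4.69-fold and 3.87-fold lower. S100B was 1.38-fold higher. Genes of cell division fell in 17 of 23 and rose in 4 (median -1.09). MKI67 had 5.3, 5.89 and 5.93 CPM in ECs+ implantation, against 34.5, 36.6 and 33.2 CPM in implantation B, 6.08-fold lower, and CENPF, TOP2A and RRM2 were 7.25-fold, 3.55-fold and 3.95-fold lower, while AURKB was 2.05-fold higher.

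Immediate early genes, ribosomal transcripts and calls by gene length also differed between the same libraries, and their part in the results above was not tested. Immediate early genes, switched on within minutes of a stimulus, fell in 20 of 22, 16 of them at least 2-fold (median -1.57). EGR1 had 444, 443 and 464 CPM in ECs+ implantation, against 2426, 2480.2 and 2402 CPM in implantation B, 5.41-fold lower, and NR4A2, JUNB and FOSB were 6.71-fold, 4.71-fold and 2.57-fold lower. All 24 tested genes of cytosolic ribosomal proteins rose (23 with log2 of TPM plus 1, RPS2 excepted, median 0.98), led by RPS27A (2.69-fold), RPL7, RPL19 and RPL32. RN18S was 6.63-fold higher, at 13017, 12685 and 12737 CPM in ECs+ implantation, against 1949.9, 1955 and 1894 CPM in implantation B, in libraries labelled as polyadenylated RNA. Shorter genes were called higher more often. The genes tested were put into 4 equal classes by length, taken as counts over TPM. In the class of shortest genes 49.8% were higher and 26% lower, and in that of the longest 23.9% were higher and 52.7% lower. From the shortest to the longest class the median log2 fold changes were 0.27, 0.13, -0.06 and -0.26. With the median of its own length class taken off each gene, endothelial identity had a median of 1.26, MHC class I 0.65, MHC class II 0.99, fibrillar collagen -1.44, basement membrane -0.57 and ribosomal proteins 0.71.

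**Figure D4:**
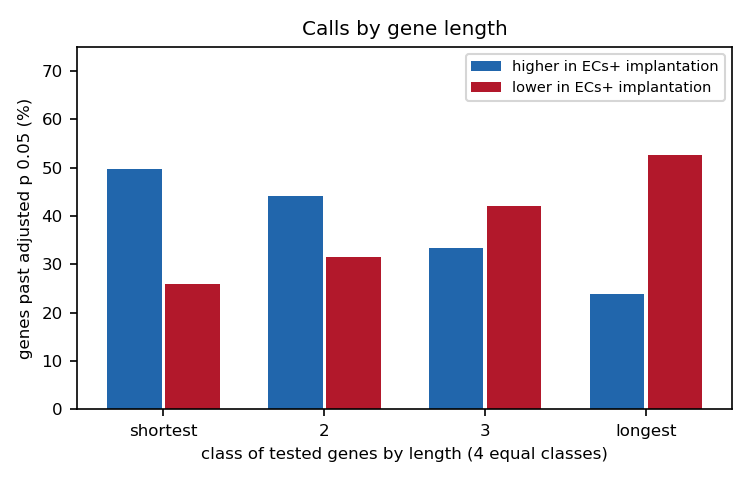
Share of tested genes past an adjusted p of 0.05, higher and lower in ECs+ implantation, in 4 equal classes of genes by length. From the shortest to the longest class the share called higher goes down in steps, with 49.8% in the shortest and 23.9% in the longest, and the share called lower goes up, with 26% in the shortest and 52.7% in the longest.

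The largest rises among genes with a symbol and a mean log2 CPM of at least 3 lay outside most of these lists. CYTL1, a small secreted protein of cartilage and CD34 positive cells, had 31.4, 24.7 and 28.3 CPM in ECs+ implantation, against 0.587, 0.693 and 1.12 CPM in implantation B (log2 fold change 5.11 ± 0.25, adjusted p = 1.94e-31). NR2E3, a nuclear receptor of photoreceptors, had 18.9, 23.8 and 17.3 CPM in ECs+ implantation, against 0.704, 0.378 and 0.894 CPM in implantation B (log2 fold change 4.89 ± 0.29). PTHLH, the parathyroid hormone-related hormone, had 119, 119 and 119 CPM in ECs+ implantation, against 6.28, 6.17 and 5.86 CPM in implantation B, 19.5-fold higher (adjusted p = 6.95e-47), and GULO, the last enzyme of vitamin C synthesis, had 17.6, 16.9 and 19.4 CPM in ECs+ implantation, against 1.17, 0.693 and 1.45 CPM in implantation B. For these genes every ECs+ implantation library lay above every implantation B library. SAP25 had 18.6, 17.6 and 18.5 CPM in ECs+ implantation, against 0, 0 and 2.62 CPM in implantation B, and its log2 fold change of 4.30 ± 1.1 (adjusted p = 0.00605) rests on 1 implantation B library apart from the others. It did not pass with DESeq2 (adjusted p = 0.0805). SLA-1 completes the 6 largest rises.

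The 6 largest falls were KRT5, KRT15, KRT6A, DMBT1, RIPK4 and KRT4. DMBT1, a secreted mucosal defence protein, had 0 counts in ECs+ implantation and 63.9, 65.1 and 65.5 CPM in implantation B (at least 1280-fold lower), and RIPK4, a kinase that keratinocytes need to differentiate, had 0 counts and 40.8, 38.6 and 39.9 CPM (at least 785-fold lower). Some genes were seen in only 1 group, with at least 1 CPM in every library of it and under 3 counts in every library of the other. There were 20 such genes in ECs+ implantation (0.075% of 26654) and 107 in implantation B (0.401%). The floor of 3 counts over a group stood at 0.0507 CPM in ECs+ implantation and 0.059 CPM in implantation B. Of those in ECs+ implantation 5 have a symbol: MSS51, OBP2B, CLEC12B, PIP and KPNA7. Of the 70 with a symbol in implantation B, 7 are on the epithelial lists (ESRP1, IVL, KRT6A, KRT15, TMPRSS2, TGM3 and OVOL2), and those with the highest level were KRT6A, S100A8, GJB2 (a connexin of epidermis), KRT15, DMBT1 and C9H1orf116.

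Levels over all 5 groups place the pair, as a description with no test. These use TMM factors of all 15 libraries, so they differ slightly from the values above, and defect 1 and 2 hold only 207769 and 250178 counts. KRT5 averaged 0.0733 ± 0.127 CPM in ECs+ implantation, 1646 ± 24.3 in implantation B, 1489.8 ± 2.09 in implantation A, 2184 ± 238 in defect and 650.5 ± 31.7 in normal (SD, n = 3 each). ECs+ implantation thus stood apart from the other 4 groups, cavernous tissue labelled normal included, all of which held squamous keratin. CLDN5 averaged 353 ± 9.3 CPM in ECs+ implantation, 72.7 ± 1.35 in implantation B, 89.7 ± 1.15 in implantation A, 134 ± 9.03 in defect and 369 ± 12.5 in normal. ECs+ implantation and normal lay close, above the other groups, and the difference between them is within their spread. PECAM1 averaged 1173 ± 17 CPM in ECs+ implantation, 432 ± 2.76 in implantation B, 441 ± 6.68 in implantation A, 509 ± 83.8 in defect and 671 ± 12.1 in normal, with ECs+ implantation above all other groups. NOS3 averaged 233 ± 9.1 CPM in ECs+ implantation, 86.3 ± 3.46 in implantation B, 123 ± 0.86 in implantation A, 98.1 ± 19.8 in defect and 304 ± 12.5 in normal. Here normal was highest, ECs+ implantation next, and the others lower. CDH5 had the same order at the top, with 382 ± 17 CPM in normal and 286 ± 8.51 in ECs+ implantation. KDR was highest in ECs+ implantation, at 155 ± 3.7 CPM, against 98.9 ± 1.97 in normal. VWF went the other way and was lowest of all groups in ECs+ implantation, at 591 ± 7.66 CPM. It averaged 738 ± 8.39 in implantation B and 1080 ± 52 in normal.

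COL1A1 averaged 4003 ± 30.7 CPM in ECs+ implantation, 82158 ± 1230.0 in implantation B, 41857 ± 206 in implantation A, 71377 ± 7370.0 in defect and 8105 ± 339 in normal. ECs+ implantation was lowest, below normal, and implantation B highest. For the summed fibrillar collagen list the means were 17565 ± 79.9 CPM in ECs+ implantation, 144343 ± 1520.0 in implantation B, 72273 ± 189 in implantation A, 149106 ± 16500.00 in defect and 17677 ± 381 in normal. In this sum ECs+ implantation and normal did not differ beyond their spread, while implantation B lay near the defect group, whose SD is wide. The like sums hide opposite differences of single chains. COL1A1 was lower in ECs+ implantation than in normal, while COL3A1 was higher, at 5911 ± 35.4 CPM against 3141.5 ± 26.7. SLA-1 averaged 1401 ± 35.5 CPM in ECs+ implantation, 70.3 ± 3.2 in implantation B, 351 ± 3.42 in implantation A, 459 ± 80.6 in defect and 517 ± 34.6 in normal, so ECs+ implantation was the highest group and implantation B the lowest, and the fold between them takes in both departures. B2M averaged 3551 ± 59.3 CPM in ECs+ implantation, 831 ± 5.66 in implantation B, 976 ± 6.75 in implantation A, 908 ± 119 in defect and 861 ± 21.6 in normal. The 4 other groups lay within a narrow range, and ECs+ implantation above it. CD163 averaged 12.9 ± 1.27 CPM in ECs+ implantation, 96.9 ± 1.8 in implantation B, 18.3 ± 0.855 in implantation A, 96 ± 11.8 in defect and 30.8 ± 0.368 in normal, lowest in ECs+ implantation. Its list as a whole was not lowest there. The summed macrophage and monocyte level was 997.5 ± 9.4 CPM in ECs+ implantation, above implantation A (686 ± 7.14) and normal (779 ± 18.3). It was below implantation B (1566 ± 9.01) and defect (1684 ± 282). EGR1 averaged 479 ± 13.3 CPM in ECs+ implantation, 2530.2 ± 37 in implantation B, 149 ± 5.28 in implantation A, 27.6 ± 10.3 in defect and 30.2 ± 1.82 in normal. EGR1 was higher in ECs+ implantation than in normal, defect or implantation A, and highest in implantation B. RN18S averaged 13632 ± 188 CPM in ECs+ implantation, 2008 ± 36.7 in implantation B, 1812 ± 409 in implantation A, 2106 ± 469 in defect and 4719.8 ± 383 in normal, highest in ECs+ implantation. PTHLH averaged 127 ± 0.259 CPM in ECs+ implantation, 6.34 ± 0.237 in implantation B, 4.94 ± 0.51 in implantation A, 11.8 ± 7.38 in defect and 6.41 ± 0.838 in normal, so its level in ECs+ implantation stands apart from all other groups.

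**Figure D5:**
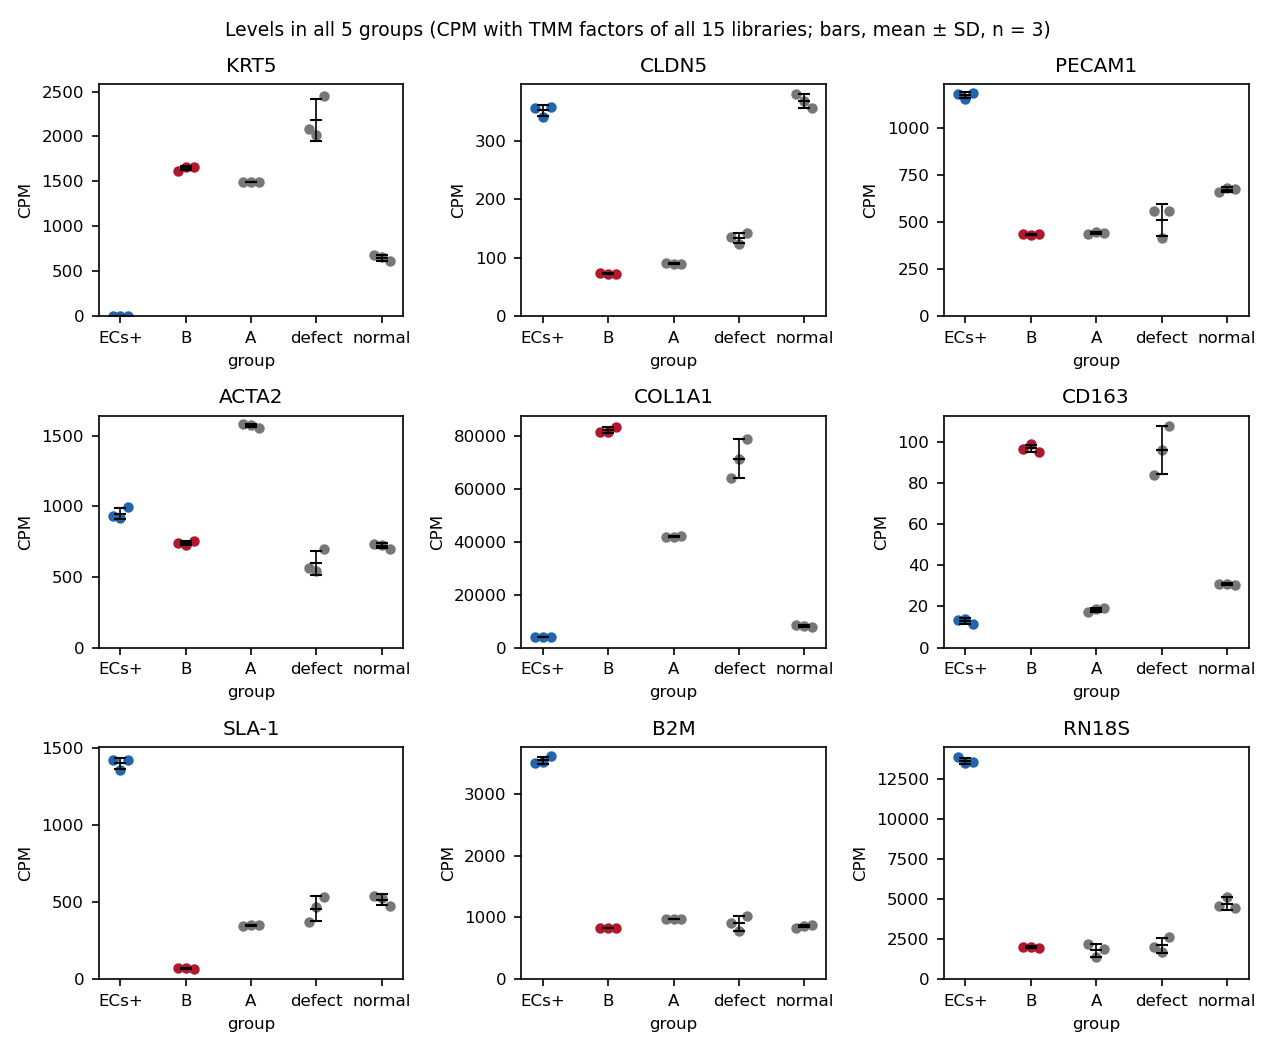
CPM of selected genes in the 5 groups, each in its own panel with an axis from 0, points for single libraries and bars for the mean ± SD (n = 3). KRT5 is near 0 in ECs+ implantation only, CLDN5 is alike in ECs+ implantation and normal, and SLA-1 is highest in ECs+ implantation and lowest in implantation B.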

How the data were processed

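RNA-seq libraries of 15 samples (5 groups of 3) were made with the TruSeq v2 kit, per the labels' protocols. Software listed in the submitters' processing notes is HISAT2, HTSeq, fastp and DESeq2, with neither versions nor roles, and the build is Sscrofa11.1. The authors deposited raw gene counts and TPM values for the same 26654 genes. Reads of antisense and overlapping genes cannot be told apart, the strand setting being not given in the sources used here. The same holds for the making of the TPM values. Columns were matched to samples by title. Gene positions come from a RefSeq table of Sscrofa11.1, in which 99.9% of the symbols were found, and 36.7% are numbered LOC entries.

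The 6 libraries of ECs+ implantation and implantation B were fitted with edgeR 4.0.16 (limma 3.58.1, R 4.3.3): filterByExpr, TMM factors, glmQLFit (robust) and glmQLFTest, two-sided, Benjamini-Hochberg adjustment over all 17204 genes tested, threshold 0.05. CPM of single libraries carry TMM factors of these 6. Fold changes come from the fit, and the SE of a log2 fold change from its curvature and dispersion (Wald). Intervals and floors cover counting error only. The scripts were tested on simulated counts.

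The members and gene lists were chosen with earlier results of these data known, so lists are described by counts and medians without a test of the list. Named are 29 chosen genes whatever their result (KRT14 was not analysed here), the 6 genes with a symbol that changed most in each direction (groups not overlapping, mean log2 CPM 3 or more), and up to 4 members of each list with the smallest p. Some members under that last rule are not printed. Other names were chosen after their values were seen. The result for 1 gene of the lists is not reported here. Summed levels leave epithelial genes out of other compartments and mix genes of different length, so they compare libraries, not lists. Alternatives were DESeq2 1.42.0, library size, upper-quartile and non-epithelial scaling, low-count filters, limma-voom, limma on log2 of TPM plus 1 or 0.1, a fit of all 15 libraries, a replicate block, a threshold of 0.01 and leaving out each library. Taking off the median of a gene's length class and the neutrophil list without calgranulins were chosen after seeing the data.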

Additional observations from a re-analysis of the deposited data

How the results depend on the processing

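The counts of changed genes moved by less than 1.5 times under every alternative run (DESeq2, other scalings, low-count filters, voom, TPM, all 15 libraries, a threshold of 0.01, each library left out), with 1 exception: 4330 genes were higher with log2 of TPM plus 0.1, against 6501. With log2 of TPM plus 1 the counts came close to that limit, with 4347 genes higher and 3089 changed at least 2-fold, against 4521. Leaving out 1 library at a time gave 12516 to 13016 genes changed, 6148 to 6479 higher, 6324 to 6537 lower and 4588 to 4704 changed at least 2-fold.

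Scaling by library size alone moved all genes together, whereas TPM moved them by unequal amounts. With log2 of TPM plus 1, AQP1 went from -0.33 to -1.10 and ACE from 0.67 to 0.71. The median log2 fold change shifted by 0.24 with library size alone, where 64% of calls were higher and 36% lower. With log2 of TPM plus 1 it shifted by -0.23, and 34.1% of calls were higher and 65.9% lower. With TMM the shares were 49.8% and 50.2%, so small differences depend on the scaling. Of 682 list members tested 624 passed, and 45 of these turned in sign with library size alone or log2 of TPM plus 1. The largest such change was that of EDNRB (0.76, but -0.12 with log2 of TPM plus 1). RGS5 changed sign, to -0.15 with both TPM pseudocounts (adjusted p = 0.00346 and 0.00343). MYH11 changed sign to 0.19 with library size alone (adjusted p = 1.73e-12) and to 0.00803 with upper-quartile factors (adjusted p = 0.738). The cause was not tested.

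Same-numbered libraries correlated at -0.0569, 0.00924 and -0.0151 in their deviations from the group means. Libraries with different numbers correlated at -0.068 to 0.0824, so no pairing by number was seen. As the spread may be technical, this cannot show whether same-numbered libraries share an animal. With the replicate number as a block, 12957 genes changed, 6452 higher and 6505 lower, and 4521 by at least 2-fold. SAP25 did not pass under the block (adjusted p = 0.0512). KIT did not pass with library size alone (adjusted p = 0.207) and DCT without ECs+ implantation 3 (0.45 on the log2 scale, adjusted p = 0.204), without implantation B 1 (0.59, 0.104) or without implantation B 3 (0.69, 0.0645). Depth limits genes at a few counts, whose fitted folds depend on the prior count.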

Other observations

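Fat cell genes went both ways. Of 10 tested adipocyte genes 6 rose and 4 fell. PLIN1 and CIDEC, proteins of the lipid droplet, were 4.59-fold and 4.62-fold higher in ECs+ implantation, CIDEC at 9.21, 10.8 and 10 CPM in ECs+ implantation, against 1.82, 2.08 and 2.57 CPM in implantation B. PPARG, the factor of fat cell identity, was 2.89-fold higher. SCD and FASN, enzymes of fatty acid synthesis, were 9.7-fold and 2.96-fold lower, SCD at 11.2, 13.3 and 13 CPM in ECs+ implantation, against 121, 121 and 122 CPM in implantation B, and the lipase LPL was 2.66-fold lower, while the lipase PNPLA2 was 1.52-fold higher. LIPE, a further lipase, was 1.33-fold lower and did not pass with scaling by library size alone (adjusted p = 0.126). ADIPOQ and LEP, the hormones that define fat cells, were too low to be tested in either group.

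Genes of hypoxia and glycolysis were split, with 7 of 19 higher and 8 lower and a median log2 fold change of -0.04, which was 0.20 with scaling by library size alone and -0.28 with log2 of TPM plus 1. HIF1A, a transcription factor regulated by oxygen, had 47.9, 52.5 and 47.1 CPM in ECs+ implantation, against 258, 256 and 250.3 CPM in implantation B, 5.18-fold lower. NDRG1 and GAPDH were 2.33-fold and 1.84-fold higher. PDK4, which turns cells from glucose to fat as fuel, was 6.85-fold higher, and the glucose transporter SLC2A1 3.42-fold lower. Heat shock and unfolded protein genes fell in 15 of 22 and rose in 5, with BAG3 3.14-fold and DNAJB1 2.21-fold lower. Of the nuclear genes of the respiratory chain 11 of 17 rose and 3 fell (median 0.31). With log2 of TPM plus 1, 8 rose and 4 fell (median 0.07). Of the 17, 15 are in the class of shortest genes, and the median with that of each length class taken off was 0.0449. COX5B, the member with the smallest p, had a log2 fold change of -0.64. The next in rank, COX6C, NDUFA4 and NDUFA2, had 0.61, 0.73 and 0.94. On the list of pigment cell genes 3 of 5 tested rose and 1 fell. SLC45A2, a transporter of these cells, had 11.7, 9.67 and 9.55 CPM in ECs+ implantation, against 0.411, 0.756 and 0.838 CPM in implantation B. MITF and DCT had log2 fold changes of 0.71 and 0.70, that of DCT not passing in some alternatives, as given above. TYRP1 was lower, with a log2 fold change of -1.67. PMEL did not pass (adjusted p = 0.477), and TYR and MLANA, which define those cells, were too low to test.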
